A study of Mus musculus with 9 samples.

Results

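Peaks of RNA bound by Polycomb repressive complex 2 (PRC2) on mouse chromosome 11 were described by position, strand and library. They were all peaks whose chromosome was given as chr11 in the 8 deposited peak lists, 1 list per library and strand, with coordinates in the mouse build mm9. There were 3872 of them among 49266 peaks in all. The chromosome was chosen by its number of peaks per megabase, the highest of all chromosomes in these same lists, so its density and the places of its dense stretches are given as a description, without a test. Female EL 16.7 mouse embryonic stem cells, from a CAST/Ei x 129/Sv/Jae cross, were differentiated for 7 days in adherent culture. The cells of all 4 libraries carried the biotin-adding enzyme BirA, stably expressed, together with a PRC2 subunit tagged with Avi-GFP. The EZH2 group was Avi-GFP-mEzh2 in clone 4A (replicate 1) and clone 5A (replicate 2), and the SUZ12 group was Avi-GFP-mSuz12 in clone 8E (replicate 1) and clone 8H (replicate 2). Each library is therefore 1 clone, and the promoter that drives the tagged subunit was not given in the sources used here. In dCLIP, RNA is fixed to protein with UV light and tagged complexes are captured on streptavidin under stringent washes. A mock library (BirA and empty vector) was not analysed here, nor were 4 PRO-seq libraries, so no untagged background is set beside these peaks here. Whether the authors called the peaks against the mock is not stated in the labels. Peak lists hold no expression values, so the labelled cell type was not checked against its markers.

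PRC2 places the repressive methyl mark on lysine 27 of histone H3. EZH2 is its methyltransferase subunit, and SUZ12 is a core subunit without which the complex is unstable and inactive. PRC2 binds many nascent and nuclear RNAs, with a known preference for guanine-rich stretches, so the RNA it meets in a cell follows which genes are transcribed and from which strand. Genes on mammalian chromosomes are unevenly spaced, with gene-rich domains and long gene-poor domains, and mouse chromosome 11 is known as one of the gene-rich chromosomes. The annotation and promoter tables at hand were of GRCm38, another build than the lists, so the gene, exon or intron under a peak is not given and its sequence was not read. Regions are therefore named by position, counted from 1, on mm9.

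Chromosome 11 held 880 and 1062 peaks in EZH2 replicates 1 and 2 and 903 and 1027 peaks in SUZ12 replicates 1 and 2. These were 8.41% (95% Wilson interval 7.89 to 8.95%) and 8.00% (7.56 to 8.48%) of the EZH2 lists and 7.80% (7.32 to 8.30%) and 7.36% (6.94 to 7.81%) of the SUZ12 lists. The chromosome makes up 4.62% of the assembled length of chromosomes 1 to 19 and X. The density was 7.22, 8.72, 7.41 and 8.43 peaks per Mb in that order of libraries, and its mean of 7.94 was followed by 6.33 on chromosome 8 and 6.12 on chromosome 17. Both EZH2 libraries had a higher share on chromosome 11 than either SUZ12 library. The means were 8.21 ± 0.284% (SD, n = 2) for EZH2 and 7.58 ± 0.309% (SD, n = 2) for SUZ12, a difference of 0.626 percentage points (exact permutation test over libraries, two-sided p = 0.333, the smallest that 2 against 2 allow). The sign turned when only the 50% of each list with the lowest false discovery rate (FDR) was counted, to -0.254 percentage points (p = 0.667 in the same exact permutation test).

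Peaks were sparse in the centromeric part and crowded in the distal part, in all 4 libraries. In 4 sections of equal length, starting at the centromeric end, the means were 13.6 ± 0.993%, 17.5 ± 1.21%, 32.8 ± 1.47% and 36.1 ± 1.38% of a library's chromosome 11 peaks (SD, n = 4). The mean density rose from 4.33 peaks per Mb in the first section to 11.5 in the fourth. The length of the first section includes 3.03 Mb before the first summit, where the presence of sequence in the build was not checked. The fourth section, from 91382893 to the end at 121843856, held 37.4% and 36.7% of the EZH2 peaks and 36.2% and 34.2% of the SUZ12 peaks. The proteins differed by 1.86 percentage points there, EZH2 minus SUZ12 (exact permutation test, two-sided p = 0.333, the smallest possible), and by less than 1 point in the other sections.

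**Figure D1:**
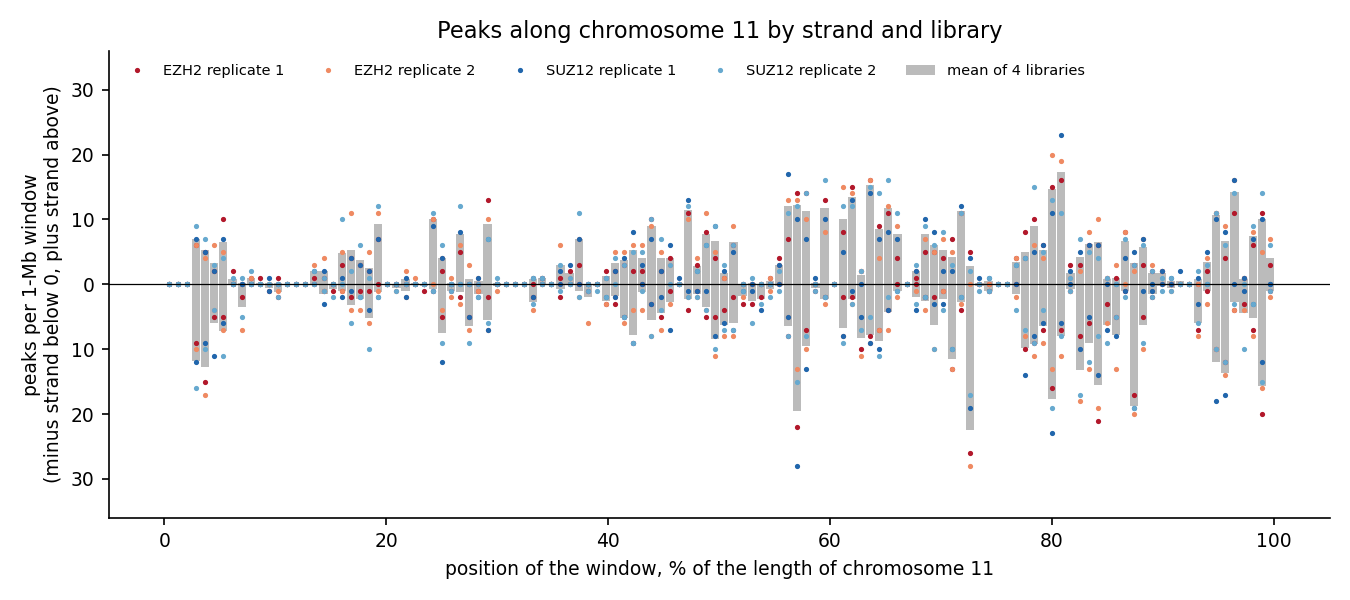
Peaks per 1-Mb window along chromosome 11, with plus-strand peaks drawn upward and minus-strand peaks downward; the horizontal axis is the position of a window in % of the chromosome's length. Grey bars are means of 4 libraries and points are single libraries; long stretches have no peak in any library, and the highest bars lie in the distal sections, where windows reached 36, 33, 38 and 32 peaks over both strands in EZH2 replicates 1 and 2 and SUZ12 replicates 1 and 2.

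The density was spread over many windows and was less concentrated in a few of them than elsewhere. Of 122 windows of 1 Mb, 82 (67.2%) had a peak in each of the 4 libraries, 24 had a peak in 1 to 3 libraries and 16 (13.1%) had none. On the other chromosomes 57.5% of 2527 windows had a peak in each library and 16.5% had none. Windows with at least 10 peaks in each library made up 33 of the 122 (27.0%), against 8.43% elsewhere. The densest 13 windows held 31.9% of the chromosome 11 peaks while the same proportion of windows held 39.5% of the peaks on the other chromosomes, and 40.8% and 40.2% on chromosomes 8 and 17. The median number per window was 4 and 7 in EZH2 and 4.5 and 7 in SUZ12, against 2 or 3 in each library elsewhere. As the chromosome was picked for its density, these contrasts describe the form that the density takes.

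The 33 windows with at least 10 peaks in each library formed 18 runs and held 2449 peaks, 63.2% of the total. Of these windows, 8 lay in the centromeric 50% of the length and 25 in the distal 50%. The longest runs were of 3 windows. The run from 68000001 to 71000000 held 72, 64, 80 and 68 peaks in EZH2 replicates 1 and 2 and SUZ12 replicates 1 and 2, with 142 on each strand in all. That from 115000001 to 118000000 held 52, 64, 69 and 56 peaks in the same order, 127 on the plus and 114 on the minus strand. Summed over a run, both were nearly balanced between the strands. In the second run this was a sum of opposite leans. The window from 116000001 held 27 plus and 55 minus peaks (adjusted p = 0.0112 in limma). That from 117000001 held 57 and 11 (adjusted p = 0.00250 in limma). The first run also summed windows of unlike direction, though none passed the threshold. Its windows held, in order, 48 plus and 26 minus, 49 and 78, and 45 and 38 peaks (adjusted p = 0.0781, 0.0868 and 0.610 in limma). The run from 77000001 to 80000000 held 142 plus and 83 minus peaks, whereas those from 86000001 to 89000000 and from 100000001 to 103000000 held 73 and 147 and 68 and 151. The summed numbers of dense runs were thus near even in some and unequal in either direction in others. A run of 17 windows from 93000001 to 110000000 had a peak of each library in every window and held 910 peaks.

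Windows of 1 Mb were ranked by the lowest number of peaks in any library, so that a rank needs all 4. The first lay at 97000001 to 98000000 and held 31, 33, 34 and 32 peaks in EZH2 replicates 1 and 2 and SUZ12 replicates 1 and 2. From 69000001 to 70000000 there were 36, 26, 38 and 27 peaks, and from 120000001 to 121000000 there were 31, 21, 22 and 29. The next in this ranking, from 115000001 to 116000000 and from 77000001 to 78000000, held 21, 21, 28 and 21 and 24, 25, 23 and 20. By the sum of the libraries, the windows from 88000001 and from 98000001, with 101 peaks each, lie before these 2, with 91 and 92. The ranges of the 2 proteins met or overlapped in 4 of the 5 windows ranked first, the exception being that from 77000001. Of these 5 only that from 77000001 passed the test of strand balance described further on. At a scale of 50 kb and by strand, 1168 windows held a peak, 186 had one in each library, 28 had at least 2 and 7 at least 3. The 28 windows were 14 on each strand.

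The leading 50-kb window, on the plus strand at 97500001 to 97550000, held 4, 6, 5 and 5 peaks, while 1 peak of all libraries lay on its minus strand. The plus-strand windows at 57850001 to 57900000 and at 75550001 to 75600000 held 3, 3, 6 and 6 and 4, 7, 4 and 3 peaks, with 0 on the opposite strand of either. The plus-strand window at 79800001 to 79850000 held 4, 3, 3 and 7, with 1 opposite. In each of these 4 windows the peaks lay almost wholly on 1 strand. The next were 23150001 to 23200000 on the plus strand, with 4, 4, 3 and 5 peaks, and on the same strand 117850001 to 117900000, with 3, 3, 6 and 4. The minus-strand window at 98850001 to 98900000 held 3, 4, 3 and 3 peaks. All 3 had 0 peaks on the opposite strand. The last of the 10 were 53200001 to 53250000 on the plus strand, with 5, 2, 3 and 6 peaks, and the minus-strand windows at 97000001 to 97050000, with 2, 5, 5 and 4, and at 95800001 to 95850000, with 5, 2, 6 and 2. Over all 10 windows the opposite strand held at most 2 peaks of the 4 libraries together, against 13 to 20 on the strand of the window. The windows were ranked by the peaks of that strand, so its high numbers follow from the choice. No share of the opposite strand over all occupied 50-kb windows stands beside them.

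The longest interval without a summit of any library, on either strand, ran 4.41 Mb from 36083885 to 40493229 (summit positions as the authors' lists give them). It was followed by 4.07 Mb from 12595861 to 16667901, 3.19 Mb from 90533534 to 93724486, 2.11 Mb from 23631003 to 25744458 and 1.92 Mb from 41313845 to 43233844. These 5 intervals together took up 15.7 Mb, or 12.9% of the chromosome. In all, 14 intervals of at least 1 Mb covered 27.6 Mb (22.7%), while the median distance between neighbouring summits was 5159 bp. Empty stretches were thus long and few beside the typical spacing. No summit lay before 3026372, and the last one lay at 121775396, which is 0.0685 Mb from the end. The 3 windows from 1 to 3000000 are counted among the empty ones, and whether the build holds readable sequence there was not checked. An absence of called peaks in an empty stretch is not shown to be an absence of bound RNA.

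The borders of the empty intervals differed. Within 1 Mb before the longest interval lay 13 and 17 peaks of the EZH2 clones and 13 and 12 of the SUZ12 clones, and within 1 Mb after it lay 3, 6, 4 and 5. The interval that begins at 90533534 had the reverse order, with 1, 1, 3 and 3 peaks before it and 13, 16, 13 and 14 after it. Within 1 Mb, 1 side of each of these 2 intervals was therefore the denser in all 4 libraries. How abruptly the peaks stopped at the border was not measured. The interval from 12595861 was bordered by few peaks, 9 before and 17 after over all libraries, and 16 of the latter lay on the plus strand. The sparse proximal sections also held dense windows. That from 3000001 to 4000000, which begins at the first summits, had 15, 16, 19 and 25 peaks, and that from 4000001 to 5000000 had 20, 21, 14 and 17.

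The strands were balanced over the whole chromosome. The plus strand carried 50.9% (95% Wilson interval 47.6 to 54.2%) and 49.0% (46.0 to 52.0%) of the EZH2 peaks and 50.1% (46.8 to 53.3%) and 51.2% (48.2 to 54.3%) of the SUZ12 peaks. These intervals treat peaks as independent, but neighbouring peaks tended to share their strand, as described further on, so the intervals are too narrow. The mean of 50.3 ± 1.01% (SD, n = 4) was 0.286 percentage points above 50 (exact sign-flip permutation test, two-sided p = 0.625, smallest possible 0.13). On the other chromosomes the plus-strand share was higher in each of the 4 libraries, by a mean of 1.56 points (p = 0.13 in the same exact test, the smallest possible). The proteins differed by -0.700 points, EZH2 minus SUZ12 (exact permutation test, two-sided p = 0.667), and the sign of this difference turned without EZH2 replicate 2, at 0.273.

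This balance was the sum of sections that leaned opposite ways. In the second section, 30460965 to 60921928, 57.1% and 55.5% of the EZH2 peaks and 62.4% and 60.1% of the SUZ12 peaks lay on the plus strand, a mean of 58.8 ± 3.08% (SD, n = 4). In the fourth section the shares were 44.4% and 42.3% for EZH2 and 45.9% and 43.9% for SUZ12, a mean of 44.1 ± 1.47%. All 4 libraries lay on 1 side of 50% in each of these sections, as they did in the third, with 54.3%, 51.2%, 50.2% and 55.9% (exact sign-flip permutation test, two-sided p = 0.13 in each, the smallest possible, and 0.167 after Benjamini-Hochberg adjustment over the 4 sections). In the first section the EZH2 clones, at 53.2% and 52.7%, lay above 50% and the SUZ12 clones, at 44.9% and 47.1%, below it. Over all chromosomes, 58.8% of sections lay on 1 side in all 4 libraries, so 3 of 4 sections is a count of the same order as elsewhere. Of the 76 sections of the other chromosomes, 19 lay at least as far from 50% as the second section here.

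**Figure D2:**
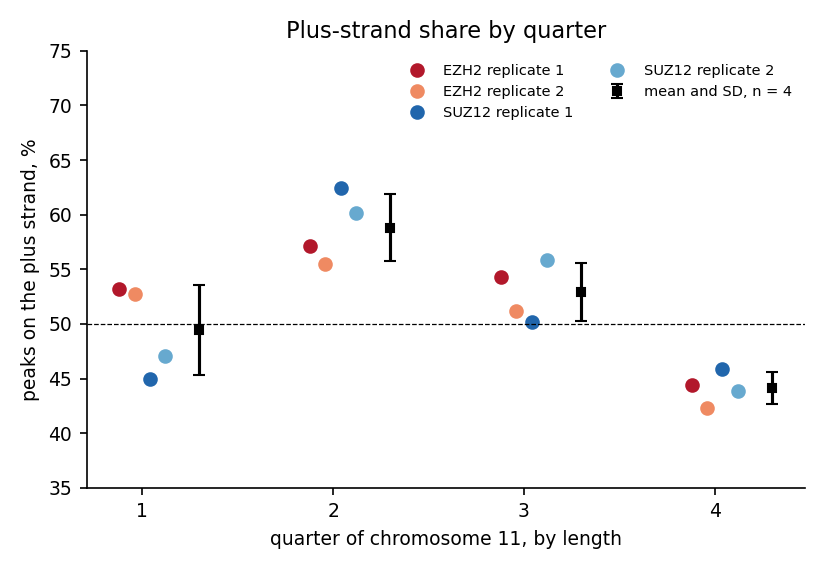
Share of peaks on the plus strand in 4 sections of equal length of chromosome 11, in % (vertical axis from 35 to 75%), with 1 point per library and the mean with its SD (n = 4). The second section lies above the dashed line at 50% and the fourth below it in all 4 libraries, while EZH2 and SUZ12 lie on different sides in the first.

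At the scale of 1 Mb the strand balance was tested window by window. The value of a window is the log2 of its plus-strand peaks over its minus-strand peaks in a library, with 0.5 added to each number, and the test asks whether its mean over the 4 libraries differs from 0. limma was fitted over all chromosomes on windows that averaged 5 or more peaks per library, with Benjamini-Hochberg adjustment over all of them. On chromosome 11, 32 of 66 windows passed an adjusted p of 0.05, or 48.5%, where 52.2% did over all chromosomes. Of these, 17 had more plus-strand peaks, where 28.4% of windows did over all chromosomes, and 15 had more minus-strand peaks, where 23.7% did. The share of windows with unequal strands on chromosome 11 was thus near the background, but with the 50% of peaks of lowest FDR it was 27.9% against 40.8% over all chromosomes. The median size of the log2 value over the tested windows was 1.05 on chromosome 11 and 1.16 over all chromosomes. All 4 libraries leaned the same way in 35 of the 66 windows (53.0%), 18 to plus and 17 to minus, where 54.4% of windows did over all chromosomes.

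The highest log2 value, that is the highest ratio of plus-strand to minus-strand peaks, belonged to the window at 29000001 to 30000000. It held 10, 10, 9 and 11 plus-strand peaks in EZH2 replicates 1 and 2 and SUZ12 replicates 1 and 2, and 1, 0, 1 and 1 minus-strand peaks, a log2 value of 3.20 ± 0.41 (SE; adjusted p = 0.000166 in limma). The strands did not overlap in any library, and 11 of the 40 plus-strand peaks lay in its richest 100 kb. The window at 32000001 to 33000000 held 5, 6, 8 and 12 plus-strand peaks and 2, 3, 0 and 0 minus-strand peaks (log2 value 2.69 ± 0.64, adjusted p = 0.00540 in limma). Here the minus-strand peaks came from the EZH2 clones only. The window at 23000001 to 24000000 held 7, 11, 7 and 12 against 0, 1, 2 and 2 (2.69 ± 0.44, adjusted p = 0.000671 in limma), and that at 45000001 to 46000000 held 3, 7, 7 and 11 against 0, 2, 0 and 2 (2.63 ± 0.48, adjusted p = 0.00120 in limma).

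Of the other plus-leaning windows, that at 80000001 to 81000000 held 4, 9, 7 and 11 against 0, 2, 1 and 1 peaks (log2 value 2.59), and 64.5% of its plus-strand peaks lay in 100 kb from 80200001 to 80300000. The window at 117000001 to 118000000 held 11, 16, 16 and 14 against 4, 4, 0 and 3 (2.58), and that at 105000001 to 106000000 held 8, 8, 4 and 7 against 1, 0, 1 and 2 (2.44). All 3 leaned to plus in each library, by adjusted p-values of 0.00263 or less in limma. The window at 75000001 to 76000000 held 15, 14, 13 and 12 against 2, 3, 1 and 3 (2.42, adjusted p = 0.000249 in limma), with 24 plus-strand peaks within 75500001 to 75600000. The windows at 57000001 to 58000000 and at 72000001 to 73000000, with log2 values of 2.23 and 2.13, complete the 10 largest. In the former, 28 of 46 plus-strand peaks lay within 57800001 to 57900000, which also holds one of the leading 50-kb windows.

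The lowest log2 value lay at 88000001 to 89000000. There, 26 and 28 EZH2 peaks and 19 and 17 SUZ12 peaks lay on the minus strand and 5, 0, 4 and 2 on the plus strand, a log2 value of -3.26 ± 0.52 (SE; adjusted p = 0.000615 in limma). The minus-strand peaks occupied 9 of its 10 stretches of 100 kb, so the lean ran through nearly the whole megabase. The smallest adjusted p of the chromosome, 0.000120 in limma, belonged to the window at 106000001 to 107000000, with 17, 20, 19 and 19 minus-strand and 3, 2, 5 and 3 plus-strand peaks (-2.42 ± 0.29). Its minus-strand peaks occupied all 10 stretches, and the 4 libraries nearly coincided. By contrast, at 104000001 to 105000000, with 5, 13, 8 and 5 against 1, 3, 0 and 0 peaks (-2.84 ± 0.49, adjusted p = 0.000829 in limma), 67.7% of the minus-strand peaks lay within 104200001 to 104300000.

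The window at 33000001 to 34000000 held 5, 7, 5 and 9 minus-strand and 0, 3, 0 and 0 plus-strand peaks (log2 value -3.07, adjusted p = 0.00102 in limma). It lies beside the plus-leaning window from 32000001, so the lean turned at their border. The windows at 113000001 to 114000000, 103000001 to 104000000 and 76000001 to 77000000 had log2 values of -2.65, -2.48 and -2.33, and the last of them follows the plus-leaning window from 75000001. The windows at 118000001, 61000001 and 100000001, each to the end of its megabase, had log2 values of -1.80, -1.64 and -1.58. In the window from 118000001, 3, 4, 1 and 10 minus-strand peaks stood against 1, 1, 1 and 0 plus-strand peaks. It barely passed (adjusted p = 0.0450 in limma). Of its 18 minus-strand peaks, 10 came from SUZ12 replicate 2, and SUZ12 replicate 1 was even. In the window from 61000001, 19 of 25 minus-strand peaks lay within 100 kb, and without that stretch 6 peaks remained on each strand.

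**Figure D3:**
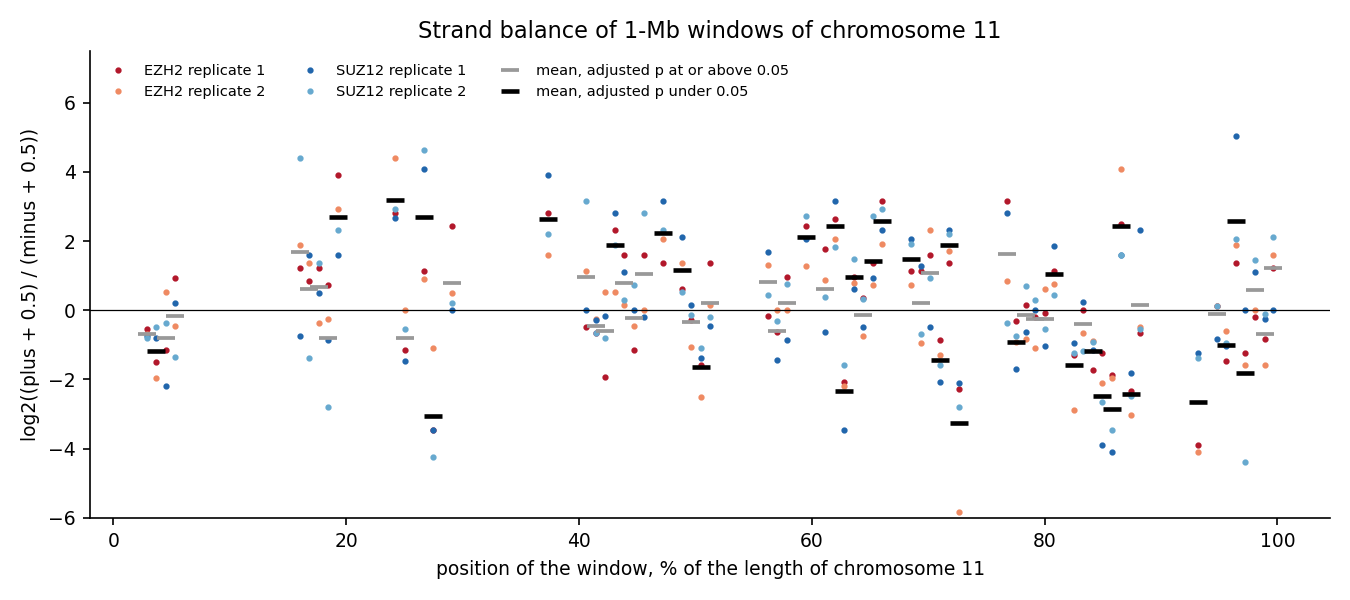
Strand balance of the 66 tested 1-Mb windows of chromosome 11: log2 of plus-strand over minus-strand peaks, with 0.5 added to each, against the position of the window in % of the chromosome's length. Points are libraries and bars are means of 4 libraries; the 32 windows with an adjusted p under 0.05 in limma (black) include both signs along the chromosome, 17 plus and 15 minus.

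Some adjoining windows leaned opposite ways. Among 12 pairs of adjoining windows that both passed the test, 9 leaned opposite ways and 3 the same way. The plus-leaning window at 87000001 to 88000000, with 11, 11, 12 and 11 plus-strand peaks against 4, 3, 2 and 2, lies directly before the strongest minus-leaning one. Of the 32 windows, 30 kept the direction of their lean when the richest 100 kb of the leaning strand was set aside, and the exceptions, from 59000001 and from 61000001, were left with equal numbers. In the median window of the 32, peaks of the leaning strand were found in 7 stretches of 100 kb, and the richest stretch held 31.6% of them. Of 1715 peaks within these windows, 78.8% lay on the leaning strand, a share that is high because the windows passed by their lean. The counts in this paragraph have no counterpart from the other chromosomes beside them, so they are not shown to be particular to chromosome 11.

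Neighbouring peaks of a library tended to lie on the same strand, and this faded with distance. Below 10 kb, 87.6% and 89.6% of neighbouring EZH2 peaks and 92.7% and 89.6% of neighbouring SUZ12 peaks shared their strand. From 10 to 50 kb the shares were 72.7%, 74.3%, 77.1% and 76.4%, and from 50 to 200 kb they were 63.0%, 59.3%, 57.5% and 59.5%. From 200 kb to 1 Mb they were 48.1%, 55.7%, 49.5% and 50.0%, so strand was no longer shared beyond an even split in 3 of 4 libraries. Over 1 Mb only 19 to 23 pairs a library remained, too few to read.

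**Figure D4:**
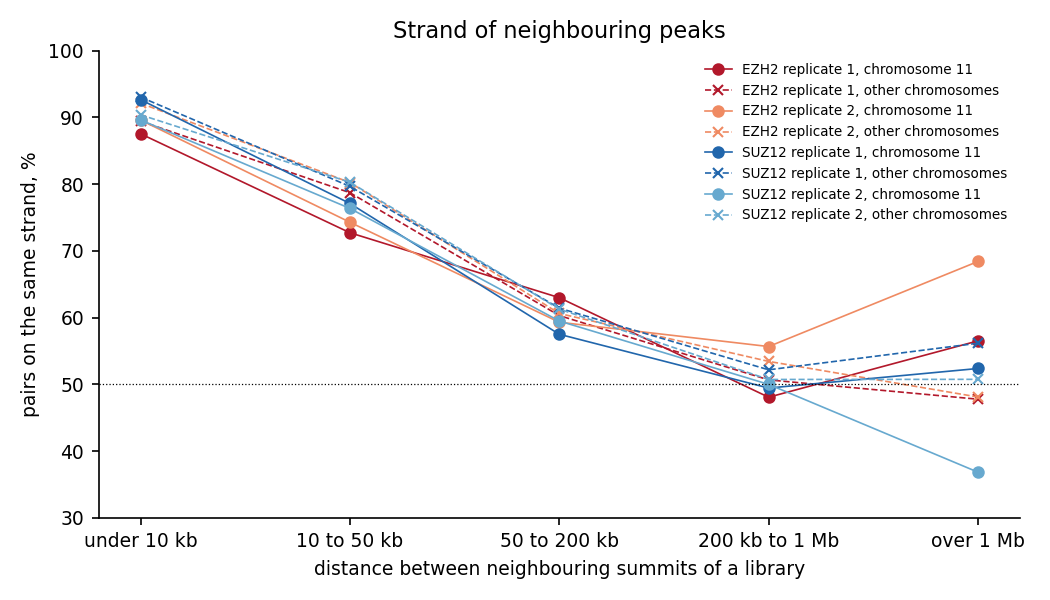
Share of neighbouring peaks of a library that lie on the same strand, in % (vertical axis from 30 to 100%), by the distance between their summits, for chromosome 11 (circles, solid lines) and the other chromosomes (crosses, dashed lines). On chromosome 11 the share falls from 87.6 to 92.7% below 10 kb to 48.1 to 55.7% from 200 kb to 1 Mb. The last point on chromosome 11 rests on 19 to 23 pairs and runs from 36.8 to 68.4%.

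The same decline was seen on the other chromosomes, and chromosome 11 lay slightly lower at short range. From 10 to 50 kb its mean share was 75.1 ± 1.99% against 79.7 ± 0.731% (SD, n = 4), lower in 4 of 4 libraries by a mean of 4.61 points. This gave p = 0.13 in the exact sign-flip permutation test, two-sided and the smallest possible, and 0.375 after adjustment over the 6 distance classes compared. Below 10 kb the means were 89.9% and 91.3%, again lower in 4 of 4 libraries (p = 0.13 in the same exact test, adjusted 0.375). In the next 2 classes the mean differences were -1.08 and -0.960 points, and over 1 Mb, with few pairs, 2.84. Over all distances together the means were 72.25% and 71.91%, higher on chromosome 11 in 3 of 4 libraries. A lower share was thus not seen over all neighbours. Peaks lie closer together on chromosome 11, and the part of spacing in the differences at short range was not tested.

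EZH2 and SUZ12 followed the same profile along the chromosome. Over the 122 windows of 1 Mb, Pearson's r of the numbers of peaks was 0.902 between the EZH2 clones, 0.883 for the SUZ12 clones and 0.868 to 0.917 between libraries of different proteins. These values describe windows that share the same sequence and the same RNA. The log2 strand values of the 66 tested windows correlated at 0.775 between the EZH2 clones, 0.662 for the SUZ12 clones and 0.639 to 0.707 across proteins.

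**Figure D5:**
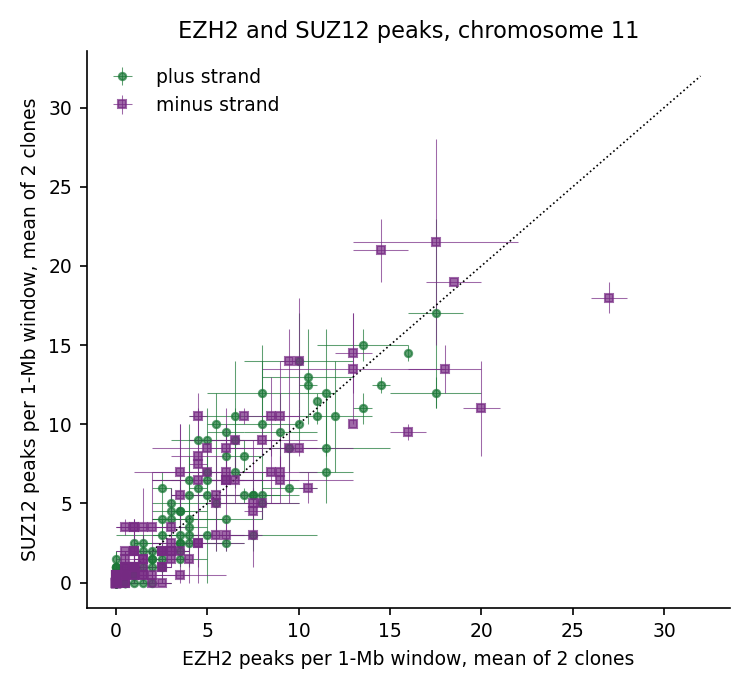
Peaks per 1-Mb window and strand of chromosome 11, mean of 2 SUZ12 clones against mean of 2 EZH2 clones; lines span the 2 clones and the dotted line marks equal numbers. Windows follow the line, and 0 of the 84 tested stranded windows passed an adjusted p of 0.05 in limma.

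No window of chromosome 11 differed between the proteins past the threshold. Of 84 stranded windows tested with limma on the log2 number of peaks scaled to 10000 peaks per library, 0 passed an adjusted p of 0.05, as did 0% over all chromosomes, and 5 had an unadjusted p under 0.05. With TMM factors in place of list lengths the numbers were again 0 and 5. The smallest p belonged to the minus strand at 102000001 to 103000000, with 21 and 19 EZH2 peaks and 14 and 8 SUZ12 peaks (log2 SUZ12 minus EZH2 -0.99 ± 0.39, SE; adjusted p = 0.930 in limma). The minus strand of the window from 88000001, with 26, 28, 19 and 17 peaks, had the third smallest (-0.68 ± 0.30, adjusted p = 0.933 in limma). In both the clones of the 2 proteins did not overlap, but differences of this size are within what the test leaves unresolved. The median width of the 95% interval on each side corresponded to 1.82-fold on chromosome 11, so differences below that were mostly not detectable. This interval is not adjusted for the number of windows, so larger differences could also go uncalled.

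The strand balance did not differ between the proteins past the threshold either. Of 66 windows 0 passed an adjusted p of 0.05 in limma, as did 0% over all chromosomes, and 3 had an unadjusted p under 0.05. The largest of these was the window from 32000001, where the 2 and 3 minus-strand peaks of EZH2 stood against 0 and 0 of SUZ12 (difference of the log2 values, SUZ12 minus EZH2, 3.35; adjusted p = 0.801 in limma). The median 95% interval, not adjusted for the number of windows, reached 3.39-fold on each side. After adjustment the test could therefore show only differences of balance still larger than that.

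Few single peaks recurred, although the profile did. Of the peaks on chromosome 11, 10.8% (95% Wilson interval 8.91 to 13.0%) of EZH2 replicate 1 and 8.95% (7.37 to 10.8%) of replicate 2 were overlapped by at least 1 bp on the same strand by a peak of the other clone. The shares were 10.6% (8.78 to 12.8%) and 9.25% (7.63 to 11.2%) in SUZ12. On the opposite strand of the other clone, 0, 0, 1 and 1 peaks were overlapped. In each library the same-strand share was higher than on the other chromosomes, by a mean of 1.18 percentage points (exact sign-flip permutation test, two-sided p = 0.13, the smallest possible). Among the 50% of peaks with the lowest FDR the mean difference turned, to -0.808 points. It was 0.707 points at 50% reciprocal overlap and 0.383 points for summits within 100 bp (p = 0.5 in the same exact test). The density of chromosome 11 is also higher in each library, and its part in this difference was not tested.

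Merging overlapping peaks of the 4 libraries gave 3444 sites on chromosome 11, of which 3131 (90.9%) came from 1 library, 236 from 2, 41 from 3 and 36 (1.05%) from all 4. On the other chromosomes 0.894% of sites were found in all 4. The 36 sites were spread over 27 windows of 1 Mb, with at most 2 in any, and 5 of them lay in the 5 windows ranked first by their lowest library. These windows also held 91 to 130 of the 3872 peaks each, so no excess of sites is read there. Of the 36, 25 lay on the plus and 11 on the minus strand, while sites of 1 library were split 1545 to 1586. The split of such sites on the other chromosomes does not stand beside this, and the difference was not tested. Sites found in all 4 libraries had a median length of 340.5 bp and sites of 1 library 163 bp, which are not comparable because a site is the union of its merged peaks. Sites of both EZH2 clones alone numbered 38 and of both SUZ12 clones alone 44, and the other pairs of libraries shared 36 to 41 sites each. The SUZ12 pair was the highest of the 6 pairs and the EZH2 pair lay within the range of the pairs across proteins; these differences were not tested.

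The strongest recurrent site lay on the plus strand at 95893934 to 95894279, 346 bp long. As the authors' caller gave it, the FDR there was 2.43e-17 and 2.20e-19 for the EZH2 clones and 6.42e-12 and 2.85e-17 for the SUZ12 clones. The next site, from 95942335 to 95942651 on the same strand, reached 2.81e-10 or less in each library. Both lie in the window from 95000001, which was nearly balanced with 36 plus-strand and 37 minus-strand peaks. On the minus strand, the FDR of the site from 101507010 to 101507281 was 1.80e-09 or less in each library. The minus-strand site from 103934005 to 103934527 had a weakest FDR of 6.23e-08, and its window held 25 minus-strand against 3 plus-strand peaks.

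The weakest FDR was 1.99e-07 for the plus-strand site from 48615209 to 48615910 and 2.57e-07 for that from 23155958 to 23156636. The former lay in a window with 5 plus-strand and 10 minus-strand peaks, so a strong site did not always lie on the richer strand. For the minus-strand site from 6427972 to 6428205 it was 4.20e-07, and for the plus-strand site from 55296132 to 55296427 it was 6.80e-07. The plus-strand sites from 75565306 to 75565585 and from 75578663 to 75579302, with 8.98e-07 and 4.46e-06, both lay in the plus-leaning stretch from 75500001. Of 15 sites in all 4 libraries that fell inside windows with unequal strands, 12 (80%) lay on the leaning strand, near the 78.8% of all peaks in these windows. The peaks of a site also count towards the lean of its window, so this share shows nothing particular to recurrent sites. The FDR was below 1e-05 in each library at 11 of the 36 sites and below 1e-10 at 1.

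Peak width on chromosome 11 was close to that elsewhere. The EZH2 medians were 187 and 196 bp, the SUZ12 medians 149 and 145 bp, against 175, 187, 151 and 138 bp on the other chromosomes. The difference was positive in 3 libraries and negative in SUZ12 replicate 1, with a mean of 6.5 ± 6.03 bp (SD, n = 4; exact sign-flip permutation test, two-sided p = 0.25, smallest possible 0.13). Ranked by FDR within their own library, from 0 for the strongest to 100 for the weakest, the median chromosome 11 peak stood at 53.0 and 50.3 in EZH2 and at 47.3 and 46.0 in SUZ12. The mean distance from 50 was -0.843 (exact sign-flip permutation test, two-sided p = 0.75).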

How the data were processed

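The data were 8 peak lists of 4 dCLIP libraries, 1 per strand. The authors called peaks per library and strand; the names in the deposited lists carry the prefix of PeakRanger, with no version, settings or control named in the labels. Tools listed in the submitters' processing notes include bedtools 2.17.0 and, for reads, TopHat2 2.0.8 with Trim Galore 0.3.3, and the build is mm9. The p-value and FDR of a peak are the authors' and only rank peaks within a library. Strands are those of the authors' plus and minus lists, whose relation to the sense of the RNA is not stated. The lists do not carry read depth: precision comes from 10468 to 13951 peaks per library, and intervals cover counting error only.

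Members, windows and lists were chosen with earlier results of these data known. Named regions followed a rule: the 5 densest 1-Mb windows by their lowest library, the 5 longest gaps, 10 windows of 50 kb ranked likewise, 10 sites by their weakest FDR, and, of windows past a threshold, the 10 most extreme in each direction. The sections of equal length and the runs were added later. Peaks were counted by summit on chromosomes 1 to 19 and X. limma 3.58.1 (R 4.3.3) was fitted with a variance trend, on the log2 mean number of peaks for the strand balance, and p-values were adjusted over all windows. TMM factors (trimmed mean of M values) were recomputed in R from their definition. Steps were tested on simulated data. Other values used Python 3.11.15, NumPy 2.4.6, pandas 2.3.3 and SciPy 1.17.1, with lengths from GenomeInfoDb 1.38.1. Libraries are separate clones, but they share 1 genome, so tests over 4 libraries measure the spread between clones and not between regions. The labels name no batch behind the replicate numbers.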

Additional observations from a re-analysis of the deposited data

Results flagged for a closer look

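The strength of chromosome 11 peaks within their own lists lay on different sides of the middle in the 2 proteins. The median FDR percentile, where low values are strong peaks, was 53.0 and 50.3 in the EZH2 clones and 47.3 and 46.0 in the SUZ12 clones, a difference of 5.01 points, EZH2 minus SUZ12 (exact permutation test, two-sided p = 0.333, the smallest possible). Ranked within strand as well, the difference was 5.99, and without single libraries it was 3.69 to 6.33.

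In the first of 4 equal sections of the chromosome, both EZH2 clones had more plus-strand peaks and both SUZ12 clones more minus-strand peaks, at 53.2% and 52.7% against 44.9% and 47.1% on the plus strand. This came to 6.96 points, EZH2 minus SUZ12, with a two-sided p of 0.333 in the exact permutation test, the smallest possible. This section holds the fewest peaks, 111 and 146 in EZH2 and 118 and 153 in SUZ12.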

How the results depend on the processing

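Windows with unequal strands on chromosome 11 numbered 32 of 66, and 19 of 46 with 2-Mb windows, 12 of 43 with the 50% of peaks of lowest FDR and 21 of 42 with a mean of at least 10 peaks. The shares were 48.5%, 41.3%, 27.9% and 50% on chromosome 11 against 52.2%, 45.3%, 40.8% and 54.8% over all chromosomes. They numbered 31 to 45 of 66 to 106 under the other settings, or 31.1% to 52.3% against 28.6% to 55.1% over all chromosomes. Without single libraries they numbered 25 to 31 of 62 to 68, or 39.7% to 47% against 39.6% to 42.4%. The share on chromosome 11 lay above that over all chromosomes without each single library and without a filter on low windows. It lay below in the other settings. With the replicate number as a block, 31 passed, 30 of them among the 32. Without a filter on low windows 33 passed, 26 of them among the 32. No direction of the 20 named windows turned under any alternative in which they were tested, though up to 3 missed the threshold in one of them (no filter). The window from 118000001 missed it with no filter, with the protein as a term, without EZH2 replicate 1 and without EZH2 replicate 2. That from 32000001 missed it with no filter and without SUZ12 replicate 2. The window from 117000001 missed it with no filter, and that from 100000001 in the 50% of lowest FDR. Differences between the proteins, in density or strand balance, stayed at 0 windows under all alternatives, with the replicate block too. Deviations of same-numbered libraries correlated at 0.117 over 846 windows and 0.18 over the 84 of chromosome 11, a hint at most. The share of chromosome 11, EZH2 minus SUZ12, was 0.408 to 0.844 without single libraries and -0.254 in the 50% of lowest FDR. The plus-strand difference was -1.67 to 0.273 without single libraries, turning without EZH2 replicate 2, 1.33 in the 50% of lowest FDR and 0.644 with covered bases. Clone sharing averaged 9.91%, 6.86% at 50% reciprocal overlap and 7.59% for summits within 100 bp, both stricter. Its excess over other chromosomes was 1.18 points, 0.707 and 0.383 under those 2 rules and -0.808 in the 50% of lowest FDR. The FDR rank was -2.12 to 0.203 without single libraries, turning without SUZ12 replicate 2. Empty windows numbered 16, and 17 to 18 without single libraries, and 22 in the 50% of lowest FDR, alternatives chosen after seeing the data. Causes were not tested. The location of peaks in genes was not run, for want of an mm9 annotation.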

Other observations

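Overlaps of peaks on opposite strands were counted on chromosome 11. In EZH2 replicates 1 and 2, 0 of 880 and 0 of 1062 peaks overlapped a peak of the same library on the opposite strand. In SUZ12 replicates 1 and 2 there were 2 of 903 and 4 of 1027. At a scale of 50 kb, 6 windows had a peak on both strands in all 4 libraries. The 186 windows with a peak in each library were counted by strand, so these numbers are of unlike units. None of these counts has a counterpart from the other chromosomes beside it, so they are not shown to be particular to chromosome 11.

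Recurrence of single peaks was compared between dense and other windows. In the 12 windows with the most peaks summed over the libraries, 9.80% and 9.86% of the EZH2 peaks and 8.85% and 10.2% of the SUZ12 peaks were found in the other clone, and in the remaining 110 windows 11.3%, 8.59%, 11.5% and 8.94%. The share was lower in the dense windows in replicate 1 of both proteins and higher in replicate 2 of both.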
